A study of Mus musculus with 6 samples.

Results

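The genes described here are those for 3 serotonin receptors (Htr2a, Htr2b and Htr7), the plasma membrane serotonin transporter (Slc6a4), both vesicular monoamine transporters (Slc18a1 and Slc18a2) and both monoamine oxidases (Maoa and Maob). They were found by symbol among the 28822 gene identifiers of the count table, and all 8 were present. The data are 6 bulk RNA-seq libraries of mouse cells labelled as bone marrow-derived macrophages (BMDMs) with HT22, a hippocampal neuronal line. By the series' title and design text, macrophages grown from bone marrow sat in a Transwell insert above HT22 cells after 2 h without oxygen and glucose, and RNA came from the insert. The design text also allows BV2 microglial cells there, which the labels do not name. The DMSO group (3 libraries) received the vehicle and the BW723C86 group (3 libraries) an agonist of the receptor 5-HT2B, with HT22 cells and the deprivation common to both. The sources used here do not give mouse strain, age, dose or treatment length, or say whether replicates were separate cultures or animals. The p-values therefore reflect sample-to-sample spread that may be technical.

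Serotonin is made from tryptophan by a hydroxylase and a decarboxylase, packed into vesicles by the vesicular monoamine transporters, taken back into cells by the transporter that Slc6a4 encodes, and broken down by the monoamine oxidases of the outer mitochondrial membrane. Cells sense it through a family of receptors. Those of the 5-HT2 class, 5-HT2A and 5-HT2B, couple to Gq and phospholipase C, whereas 5-HT7 couples to Gs and adenylate cyclase. Macrophages are known to respond to serotonin through several of these receptors.

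Library totals ran from 58841307 to 75931615 estimated counts, with 19034 to 20002 genes detected. The detection floor was set at a count of 3, worth 0.0386 to 0.0523 CPM (counts relative to the TMM-scaled library total), for counting error alone. Low values cluster at multiples of 4, so a sequenced fragment may be worth several counts, and the true floor would then be higher. BW723C86 replicate 2 stood farthest from its group: with counts divided by 4, its chi-square per degree of freedom against the other 2 libraries was 8.88 and 6.09, against 2.46 to 2.77 for the remaining pairs. The 8 macrophage markers checked were all present, with a summed level of 37233 to 38082 CPM in DMSO and 32709 to 33918 CPM with BW723C86. Csf1r, Cd68, Mrc1 and Mertk rose, Adgre1, Itgam and Lyz2 fell, and Fcgr1 did not pass. Lyz2 made up most of the sum: the difference of -4351 CPM between the group means was -881.7 CPM without it. Of 9 neuron markers 7 were in the table and none was high enough to test. The neuron sum was 0 to 0.141 CPM in DMSO and 0.222 to 0.401 CPM with BW723C86, and Map2, Nefl and Dcx were at 0 in every library.

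Sequence upstream of the start site is shown for 4 of the 8 genes: Htr2b, which had the largest change, Htr7, which fell most, Slc6a4, which had the highest level, and Slc18a2, which fell while its paralog rose. Each run is the 250 bases before the RefSeq start in GRCm38.p6, read 5′ to 3′ on the strand of the gene, with capitals for matches to 4 motifs searched on both strands: the cyclic AMP response element TGACGTCA, the AP-1 motif TGANTCA, the PU.1 core GAGGAA, and the E-box CACGTG. The positions are chr1:86111981-86112230 (minus strand) for Htr2b, chr19:36057361-36057610 (minus) for Htr7, chr11:76998347-76998596 (plus) for Slc6a4 and chr19:59260628-59260877 (plus) for Slc18a2.
Htr2b: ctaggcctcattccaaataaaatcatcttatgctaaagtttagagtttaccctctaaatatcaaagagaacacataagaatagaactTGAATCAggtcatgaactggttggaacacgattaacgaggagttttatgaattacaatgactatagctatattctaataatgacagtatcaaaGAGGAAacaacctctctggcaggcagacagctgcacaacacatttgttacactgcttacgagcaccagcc
Htr7: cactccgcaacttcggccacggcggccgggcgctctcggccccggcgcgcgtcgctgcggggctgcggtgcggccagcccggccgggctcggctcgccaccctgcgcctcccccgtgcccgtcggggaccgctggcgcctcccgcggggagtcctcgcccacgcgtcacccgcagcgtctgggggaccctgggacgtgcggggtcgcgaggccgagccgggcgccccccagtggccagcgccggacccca
Slc6a4: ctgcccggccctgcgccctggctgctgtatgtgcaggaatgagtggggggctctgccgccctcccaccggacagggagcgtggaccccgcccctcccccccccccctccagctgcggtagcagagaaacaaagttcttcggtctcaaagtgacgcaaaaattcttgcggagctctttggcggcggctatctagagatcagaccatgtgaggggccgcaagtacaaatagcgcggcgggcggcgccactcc
Slc18a2: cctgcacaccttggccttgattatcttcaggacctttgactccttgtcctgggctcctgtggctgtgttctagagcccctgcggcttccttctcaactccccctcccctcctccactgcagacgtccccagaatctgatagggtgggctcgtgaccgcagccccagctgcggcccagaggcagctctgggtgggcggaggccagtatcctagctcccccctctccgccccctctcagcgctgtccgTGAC

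The upstream windows differed in base composition. Htr7 had 82% G and C and 41 CG dinucleotides, with an observed to expected CG ratio of 0.981, above 93.2% of the 32851 windows of this length in the RefSeq table. Htr2b had 37.6% G and C and 3 CG dinucleotides. Slc6a4 and Slc18a2 stood between them with 64.8% and 64% G and C and 18 and 9 CG dinucleotides, and the median over all windows was 52.4% G and C. For the motifs, the search covered 300 bases, from 250 before to 50 after the start. The Htr2b window held TGAATCA, a match to the AP-1 motif, at -163 from the start, and the PU.1 core at -70. Slc18a2 held the cyclic AMP response element from -4, across the start, so that its first letters end the run above in capitals. Among all windows 7.81% held the AP-1 motif, 28.3% the PU.1 core, 1.79% the cyclic AMP response element and 7.15% the E-box. None of the 4 motifs was found in the windows of Htr7, Slc6a4 or Maoa, and Htr2a held the PU.1 core at -27. For Htr2a, unlike the other genes, the bases checked after the RefSeq start were in no annotated transcript, so that position is less certain. No letters were shared between matches in these windows, the motifs were picked with the expression values known, and a match describes the letters alone.

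With BW723C86, 5 of the 8 genes rose and 2 fell. Htr2b, Slc18a1, Maob, Slc6a4 and Maoa rose, Htr7 and Slc18a2 fell, and Htr2a did not pass the test. Calls are from the quasi-likelihood F test of edgeR on 15567 genes at an adjusted p (Benjamini-Hochberg) under 0.05, which called 42% of all tested genes, 21.3% as higher and 20.7% as lower. The groups did not overlap for 7 of the 8 genes, against 52.3% of all tested genes. The median log2 fold change of the 8 was 1.15, against 0.0042 over all tested genes. All 8 passed the filter on low counts, which asks for about 0.15 CPM in 3 libraries, but Htr2b reached that level in 1 of 3 DMSO libraries and so passed through the BW723C86 group, and Htr7 reached it in 2 of 3 BW723C86 libraries and passed through the DMSO group. Passing through 1 group favours genes that differ, though it does not require a difference. The counts above therefore describe the 8 genes and test nothing about them as a group.

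**Figure D1:**
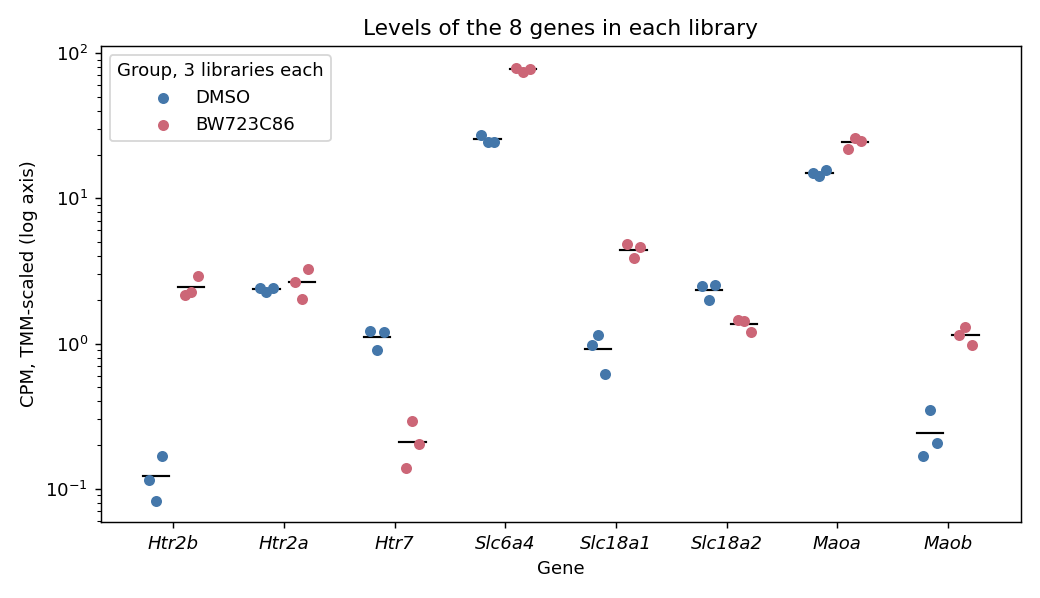
Level of each of the 8 genes (x axis) in CPM on a log axis (y axis). Points are single libraries, 3 per group, and black lines are group means. Slc6a4 and Maoa stand above 10 CPM in all 6 libraries, and the groups overlap for Htr2a.

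Among the receptors, Htr2b (ENSMUSG00000026228), the gene of the receptor that the agonist targets, changed most. Its estimated counts in DMSO replicates 1 to 3 were 9, 5 and 13 (0.116, 0.0829 and 0.167 CPM), and in the BW723C86 replicates they were 124, 162 and 172 (2.16, 2.25 and 2.91 CPM). Every BW723C86 library lay above every DMSO library. The log2 fold change was 4.28 (SE 0.33, 95% interval 3.57 to 4.99, adjusted p = 3.2e-07 by edgeR), a 19.4-fold rise, and its size exceeded that of 99.6% of tested genes. The DMSO values lay near the detection floor, so the size of the fold rests on few counts. With counts divided by 4 it was 4.37, and without DMSO replicate 2 it was 4.09. In the GENCODE annotation Htr2b lies wholly inside Psmd1, a proteasome subunit gene on the opposite strand, and no source used here says whether the authors counted by strand. The DMSO libraries had 88.1 ± 1.1 CPM of Psmd1 and the BW723C86 libraries 87.8 ± 4.76 CPM (SD, n = 3 each), with a log2 fold change of -0.01 (95% interval -0.11 to 0.10, adjusted p = 0.94 by edgeR).

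Htr7 (ENSMUSG00000024798), the gene of the Gs-coupled receptor 5-HT7, went the other way. DMSO replicates 1 to 3 held 95, 54 and 94 counts (1.22, 0.895 and 1.21 CPM) and the BW723C86 replicates 8, 21 and 12 (0.14, 0.292 and 0.203 CPM). The groups did not overlap, and the lowest DMSO library was DMSO replicate 2. The fall was 5.16-fold (log2 fold change -2.37, SE 0.39, 95% interval -3.22 to -1.51, adjusted p = 0.00032 by edgeR). Leaving out each library in turn gave log2 fold changes from -2.70 to -2.15. The 2 flanking protein-coding genes, Kif20b and Rpp30, did not pass (log2 fold changes of -0.24 and -0.27, adjusted p = 0.093 and 0.15).

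Htr2a (ENSMUSG00000034997) encodes 5-HT2A, the other Gq-coupled receptor of the 3. It had 188, 136 and 188 counts in DMSO (2.42, 2.26 and 2.42 CPM) and 153, 145 and 194 with BW723C86 (2.67, 2.02 and 3.28 CPM). The BW723C86 libraries lay on both sides of the DMSO libraries. The log2 fold change was 0.16 (SE 0.20, adjusted p = 0.56 by edgeR), with a 95% interval from -0.28 to 0.61, so a change of up to that size in either direction could not be told from none. Its sign turned without BW723C86 replicate 3 (-0.03). Of its flanking genes, Esd, encoding esterase D, rose by 0.82 and Sucla2 did not pass.

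Per kilobase of exonic sequence, the 2 Gq-coupled receptors changed places. In DMSO Htr2a stood at 0.422 ± 0.0167 RPKM and Htr2b at 0.0572 ± 0.0199 RPKM (SD, n = 3), and with BW723C86 Htr2a was at 0.473 ± 0.113 and Htr2b at 1.15 ± 0.19 RPKM. The lowest Htr2b value with BW723C86 (1.02 RPKM) was above the highest Htr2a value (0.585 RPKM), whereas in DMSO the highest Htr2b value (0.0784) was below the lowest Htr2a value (0.402). Htr7 was at 0.326 ± 0.0544 RPKM in DMSO, below Htr2a, and at 0.0622 ± 0.0225 RPKM with BW723C86, the lowest level of the 8 genes in that group. Lengths are of the union of annotated exons, and the isoform in use in these cells was not measured.

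Of the transporters, Slc6a4 (ENSMUSG00000020838) had the highest level. It clears serotonin from outside the cell, and is the target of selective serotonin reuptake inhibitors. The DMSO libraries held 2132, 1477 and 1886 counts (27.4, 24.5 and 24.2 CPM) and the BW723C86 libraries 4550, 5304 and 4619 (79.4, 73.7 and 78 CPM). The 3 libraries of each group lay close together and far from the other group. The rise was 3.03-fold (log2 fold change 1.60, SE 0.06, 95% interval 1.46 to 1.74, adjusted p = 4.7e-10 by edgeR). Its mean level exceeded that of 77.1% of tested genes, while Htr2b, Htr7, Slc18a1, Slc18a2 and Maob exceeded between 16.3% and 29%. Neither flanking gene was called higher: Blmh, a cysteine protease gene, was at 48.3 ± 1.23 and 47.2 ± 0.704 CPM (adjusted p = 0.65) and Nsrp1, a splicing regulator gene, fell by 0.60 on the log2 scale (adjusted p = 0.00037).

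The vesicular transporter genes moved in opposite directions. Slc18a1 (ENSMUSG00000036330), encoding VMAT1, the form typical of neuroendocrine cells, had 76, 69 and 48 counts in DMSO (0.978, 1.14 and 0.617 CPM) and 276, 278 and 274 with BW723C86 (4.81, 3.86 and 4.63 CPM). All BW723C86 libraries lay above all DMSO libraries, and the log2 fold change was 2.29 (SE 0.23, 95% interval 1.78 to 2.79, adjusted p = 4.8e-06 by edgeR). In the annotation Slc18a1 overlaps Atp6v1b2 on the opposite strand, a gene for a subunit of the vesicular proton pump. Atp6v1b2 was far more abundant and rose by 0.61 on the log2 scale (565 ± 9.19 to 861 ± 11.4 CPM, SD, n = 3, adjusted p = 1e-07 by edgeR). The flanking lipoprotein lipase gene Lpl rose by 1.49. How far counts of Atp6v1b2 enter those of Slc18a1 was not tested.

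Slc18a2 (ENSMUSG00000025094) encodes VMAT2, the form of monoamine neurons, platelets and mast cells. It had 192, 121 and 196 counts in DMSO (2.47, 2.01 and 2.52 CPM) and 83, 103 and 71 with BW723C86 (1.45, 1.43 and 1.199 CPM). The groups were separate, though close: the lowest DMSO library was DMSO replicate 2. The fall was 1.72-fold (log2 fold change -0.78, SE 0.21, 95% interval -1.23 to -0.33, adjusted p = 0.0088 by edgeR). Per kilobase, Slc18a2 stood above Slc18a1 in DMSO (0.446 ± 0.0542 and 0.169 ± 0.0499 RPKM) and below it with BW723C86 (0.26 ± 0.0266 and 0.821 ± 0.0931 RPKM), with no overlap between both genes in either group. The flanking genes Pdzd8 and Shtn1 changed by -0.26 and 0.17 (adjusted p = 0.0092 and 0.015).

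Both oxidase genes rose. Maoa (ENSMUSG00000025037), whose product prefers serotonin and noradrenaline, held 1151, 855 and 1227 counts in DMSO (14.8, 14.2 and 15.8 CPM) and 1257, 1863 and 1478 with BW723C86 (21.9, 25.9 and 25 CPM). The groups did not overlap, and the rise was 1.63-fold (log2 fold change 0.70, SE 0.08, 95% interval 0.52 to 0.88, adjusted p = 1.8e-05 by edgeR). Maob (ENSMUSG00000040147), whose product prefers phenylethylamine, had 13, 21 and 16 counts in DMSO (0.167, 0.348 and 0.206 CPM) and 66, 93 and 58 with BW723C86 (1.15, 1.29 and 0.98 CPM). Here too every BW723C86 library lay above every DMSO library, with a log2 fold change of 2.26 (SE 0.39, 95% interval 1.40 to 3.11, adjusted p = 0.00047 by edgeR). The 2 genes are neighbours on the X chromosome, on opposite strands. Maoa remained the more abundant, at 3.58 ± 0.192 against 0.0862 ± 0.0342 RPKM in DMSO and 5.82 ± 0.499 against 0.409 ± 0.0563 RPKM with BW723C86. Cask, on the other side of Maoa, rose by 0.30 (adjusted p = 0.014), and Ndp, on the other side of Maob, was at 0 in every library.

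**Figure D2:**
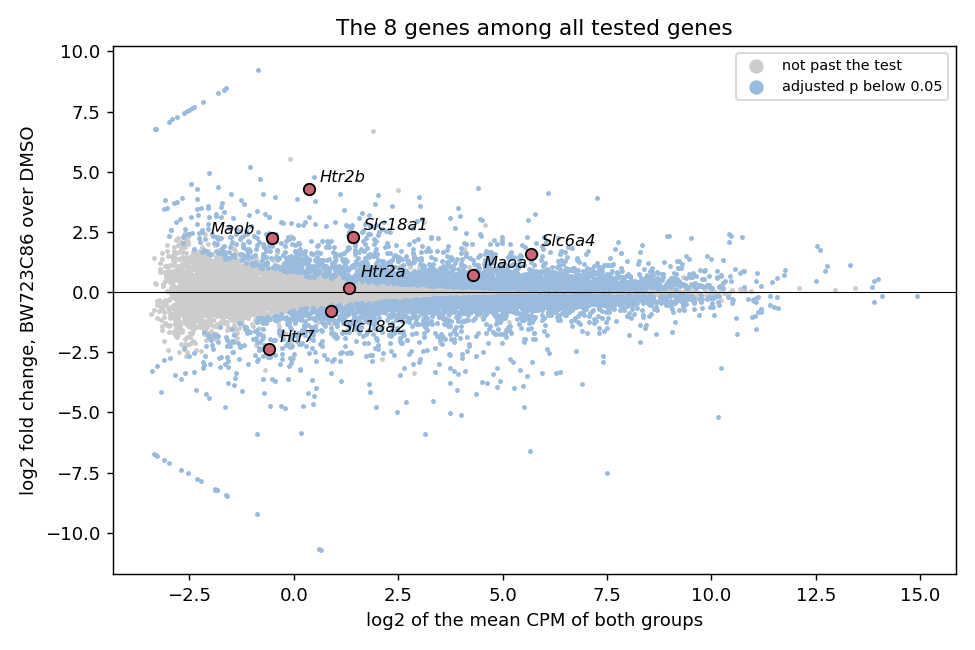
Log2 fold change of each of the 15567 tested genes (y axis) against the log2 of its mean CPM (x axis), with the 8 genes in red. Slc6a4 and Maoa lie to the right at higher levels, Htr2b lies highest at 4.28 and Htr7 lowest at -2.37 among the 8.

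Ordered by level per kilobase, Slc6a4 (5.6 ± 0.392 RPKM) and Maoa came first in DMSO, then Slc18a2, Htr2a, Htr7, Slc18a1, Maob and Htr2b. The ranges over libraries overlapped between Slc18a2 and Htr2a, between Slc18a1 and Maob, and between Maob and Htr2b, so these neighbours did not differ beyond their spread. With BW723C86 the order was Slc6a4 (17 ± 0.648 RPKM), Maoa, Htr2b, Slc18a1, Htr2a, Maob, Slc18a2 and Htr7. In that group the ranges of Htr2a and Maob overlapped. Htr2b thus went from the last place to the third and Htr7 from the fifth to the last.

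The rest of the pathway was followed with a list of 51 other genes, of which 38 were in the table and 23 were high enough to test. Of these 23, 8 rose, 4 fell and 11 did not pass, beside 42% of all tested genes called in either direction, and the median log2 fold change was 0.17. None of the 4 other receptor genes in the table could be tested: Htr1b, Htr1f and Htr6 were at 0 in every library, and Htr5b had a count of 5 in a single DMSO library. The synthesis genes were absent or nearly so. Tph1, the tryptophan hydroxylase of peripheral tissues, had 8 counts in DMSO replicate 1 and 0 in the other 5 libraries, and Ddc, the decarboxylase, had 0 in all 6. A count of 0 allows up to the floor of 0.0386 to 0.0523 CPM given above, or more if a fragment is worth several counts. Of the other carriers that can take up serotonin, Slc29a4 and Slc6a3 were at 0 throughout and Slc22a3 had at most 11 counts. In the melatonin branch, Aanat had at most 4 counts.

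The tested genes that act after the oxidases, or that conjugate monoamines, were higher together. The aldehyde that the oxidases form is oxidised or reduced by aldehyde dehydrogenases and aldo-keto reductases, and sulfotransferases conjugate monoamines. Of this group, 4 genes of the aldehyde enzymes and the sulfotransferase gene Sult1a1 were tested. All 5 rose, beside 21.3% called higher among all tested genes, with a median log2 fold change of 0.48. Aldh1b1 rose from 37.4 ± 1.25 to 64.1 ± 4.83 CPM (SD, n = 3) and Aldh2, the main mitochondrial form, from 495 ± 10.7 to 631 ± 48.2 CPM. The reductase genes Akr1a1 and Akr1b3 rose by 0.48 and 0.30 on the log2 scale. Sult1a1, a sulfotransferase of phenols and monoamines, went from 0.502 ± 0.188 to 2.15 ± 0.0912 CPM, up by 2.11 on the log2 scale (SE 0.30, adjusted p = 8.4e-05 by edgeR). Aldh1a1 was too low to test. When the test asked for more than a 1.2-fold change, the count of pathway genes called higher was 4 in place of 8. Aldh2 and Akr1b3 were among those that no longer passed.

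Of the genes for tetrahydrobiopterin, the cofactor of the hydroxylases, Qdpr, which recycles it, rose by 0.49 (79.6 ± 3.15 to 112 ± 3.53 CPM, adjusted p = 3.4e-06 by edgeR). Gch1, the first enzyme of its synthesis, did not pass (42.5 ± 3.47 and 41.9 ± 4.11 CPM, 95% interval of the log2 fold change -0.20 to 0.15). Pts, Spr and Gchfr did not pass either, and Pcbd1 was too low to test. In the kynurenine branch, which uses tryptophan otherwise, Kynu rose by 0.38 and Haao fell from 11.9 ± 0.911 to 7.23 ± 0.123 CPM (log2 fold change -0.72). Ido1, Ido2, Afmid, Kmo and Qprt did not pass, and Tdo2 and Acmsd were too low to test. Of genes whose products are known to act with serotonin or its transporter, Tgm2, a transglutaminase that can attach serotonin to proteins, fell from 290.1 ± 1.12 to 127 ± 8.35 CPM. The integrin gene Itgb3 rose by 0.34, and S100a10 (adjusted p = 0.054) and Stx1a (adjusted p = 0.11) did not pass. S100a10 was near the threshold: its log2 fold change was -0.16 and its groups did not overlap, and it was called lower under 9 of the 17 alternatives run.

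**Figure D3:**
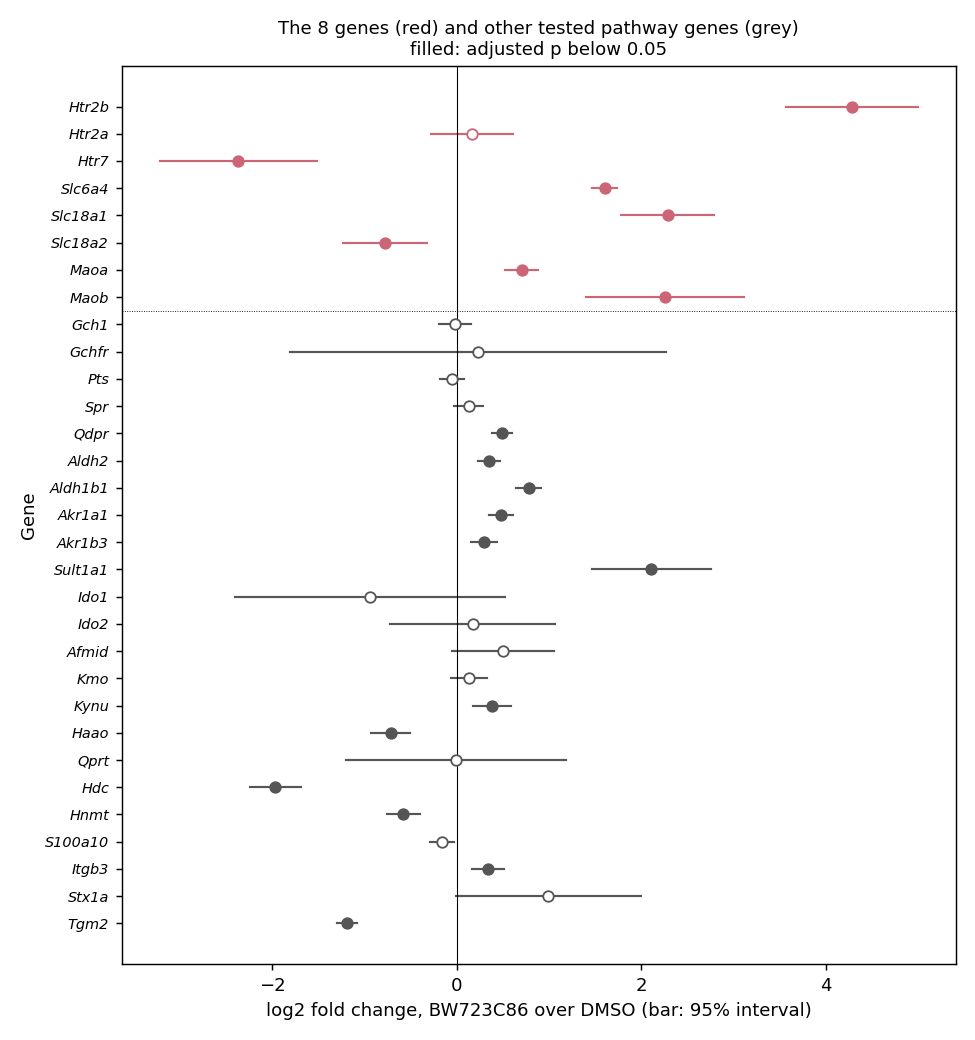
Log2 fold change (x axis) with its 95% interval for the 8 genes (red) and the 23 other tested pathway genes (grey, y axis). Filled points passed the test. All 5 genes from Aldh2 to Sult1a1 lie to the right of 0, and Hdc lies farthest to the left of the grey points at -1.97.

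Histamine is also carried by VMAT2, and both histamine genes on the list fell, beside 20.7% of all tested genes called lower. Hdc, the histidine decarboxylase that makes it, had 1521, 1259 and 1391 counts in DMSO and 287, 290 and 350 with BW723C86 (19.4 ± 1.5 and 4.98 ± 0.94 CPM, SD, n = 3), a fall with a log2 fold change of -1.97 and a 95% interval of -2.25 to -1.69 (adjusted p = 6.6e-08 by edgeR). The groups were far apart. Hnmt, which inactivates histamine, fell from 23.1 ± 0.798 to 15.4 ± 1.4 CPM (log2 fold change -0.58). Dbh, the dopamine hydroxylase gene, was at 0 in every library.

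Cells other than macrophages can carry these genes, chiefly mast cells, basophils and platelets with their precursors, and their markers moved with the treatment. Of 9 mast cell markers, 8 were in the table and 5 were tested: Cpa3, Gata2 and Tpsb2 fell, and Kit and Ms4a2 did not pass. Of the 3 too low to test, Fcer1a had counts of 4, 11 and 13 in DMSO and 3, 4 and 8 with BW723C86, and Cma1 and Tpsab1 each had counts in 1 library, 4 and 5. The mast cell sum was 138 to 145.9 CPM in DMSO and 68.3 to 72 CPM with BW723C86. Both basophil markers, Mcpt8 and Prss34, fell, and their sum was 4.65 to 6.56 CPM in DMSO and 1.42 to 2.25 CPM with BW723C86. The 3 tested of 5 megakaryocyte and platelet markers, Pf4, Itga2b and Ppbp, fell, with a sum of 159.6 to 169.8 CPM in DMSO and 20.1 to 25.2 CPM with BW723C86, most of it Pf4, which macrophages also express. Gp9 and Gp1bb had at most 19 counts in any library. Among all tested genes, 20.7% were called lower. Slc18a2, Htr7 and Hdc also fell with BW723C86, while Slc6a4, Slc18a1, Htr2b, Maoa and Maob rose. With 2 groups, all genes that fall do so in the same libraries, so this links none of them to a cell type.

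Other lists moved too. The sum of 5 dendritic cell markers, led by Itgax, was 504 to 515 CPM in DMSO and 2332 to 2483 CPM with BW723C86. Of the 5 markers 3 were called higher, beside 21.3% of all tested genes. Itgax made up nearly all of the rise in the sum: the difference of 1914 CPM between the group means was 25.07 CPM without it. All 5 tested of 7 neutrophil markers fell, beside 20.7% of all tested genes called lower. The neutrophil sum was 197 to 207 CPM in DMSO and 26.9 to 31.4 CPM with BW723C86. Of 5 microglia markers 4 were in the table: Fcrls rose, Tmem119 and P2ry12 fell, and Siglech was too low to test. The groups did not overlap for any of the 8 sums (exact permutation test, two-sided, p = 0.1 for each and 0.1 after adjustment over the 8, the smallest that 3 against 3 libraries allow). The part of these cells in the changes of the 8 genes was not tested, and in bulk RNA fewer cells of a type and less RNA per cell cannot be told apart. None of the 3 markers of serotonergic cells (Fev, Tph2 and Chga) was found by symbol in the table.

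**Figure D4:**
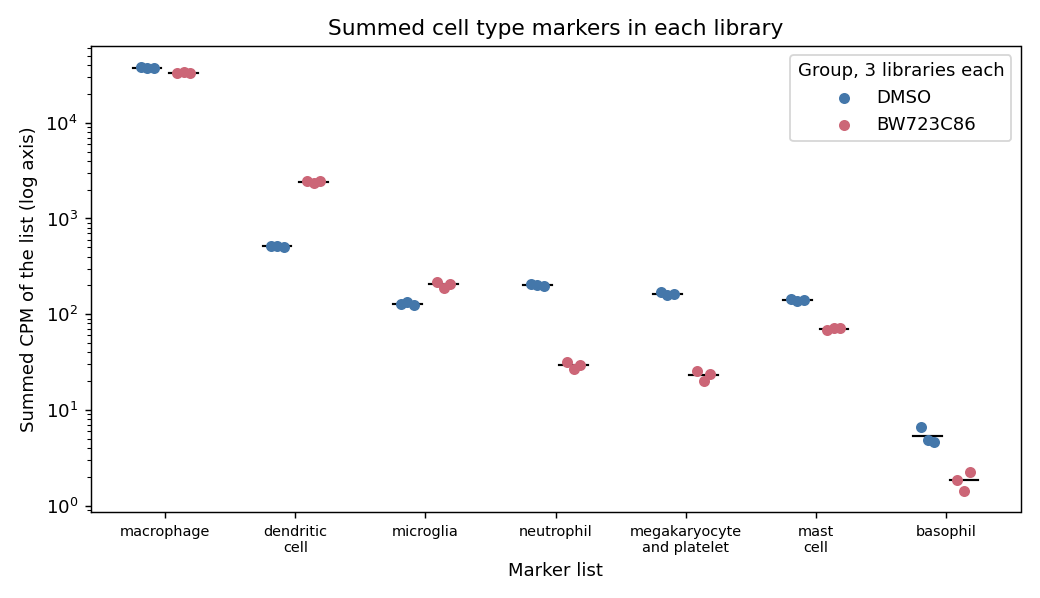
Summed CPM of 7 marker lists (x axis) on a log axis (y axis), with points for single libraries and black lines for group means of 3. Mast cell, basophil, and megakaryocyte and platelet sums are lower in every BW723C86 library than in any DMSO library. The dendritic cell sum is higher, mostly through Itgax.

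For each of the 8 genes, the 2 genes of most similar profile were found by the root mean square (RMS) difference of log2 CPM over the 6 libraries, after each profile was centred on its mean, among 12241 or 12242 named genes with a mean of at least 1 CPM. With 2 groups this measure mostly follows the fold change. Closest to Htr2b were Gfra2, a co-receptor gene for neurturin (RMS 0.255), and Mamdc2 (0.283), with log2 fold changes of 3.93 and 4.13. Slc6a4 was closest to Klk1b1, a kallikrein gene whose near-identical relatives may share its reads, and Gprc5c (RMS 0.0461 and 0.0528). Htr7 was closest to the adhesion molecule gene Vcam1 and the chemokine gene Cxcl2 (RMS 0.204 and 0.215), which had log2 fold changes of -2.12 each. Closest to Slc18a1 were Sult1a1, named above, and Klrg2 (RMS 0.14 and 0.154), and closest to Maob were Dmrta2 and Adam33 (0.178 and 0.197). Maoa had Ogt, the O-GlcNAc transferase gene, and Sqle, the squalene epoxidase gene (0.0357 and 0.0369). For Slc18a2 they were Mphosph10 and AI661453 (0.0589 and 0.0652), and for Htr2a Gstp-ps and Pomgnt2 (0.0579 and 0.0801).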

How the data were processed

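RNA of 6 libraries (3 per group) was selected for poly(A), strand-marked with dUTP and sequenced as paired ends, per the labels' protocols. The submitters' processing notes name fastp, HISAT2, StringTie and edgeR and the builds GRCm39 and GRCh38, with no version or role. The deposited values are the authors' estimated counts per gene, which are whole numbers, so rounding changed none. Low values cluster at multiples of 4 (4613 values of 4, 2904 of 3 and 2552 of 5), so counts divided by 4 were an alternative. Symbols came from GENCODE M21 (27005 of 28822 identifiers). That release is of another build, so it served for names, neighbours and exonic lengths, with no coordinates. Upstream sequences are RefSeq's, GRCm38.p6, matched by symbol for 6 of the 8 genes.

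Counts were fitted with edgeR 4.0.16 (R 4.3.3: TMM, default expression filter, robust quasi-likelihood F test, two-sided) over 15567 genes. Standard errors were derived from the log2 fold change and F. Summed markers were compared by exact permutation. Within each group, replicates differed beyond sampling noise and were kept apart. Alternatives were other scalings and filters, a non-robust fit, DESeq2 1.42.0, limma-voom (limma 3.58.1), a test against a fold of 1.2, the replicate number as a block and each library left out. The script was tested on simulated data for unbiased fold changes and the share of false calls. A first requirement on the share of changed genes called failed for the smaller changes at low counts. That share was then recorded without being required. The 8 genes, the lists and the motifs were chosen with earlier results of these data known. Named are the 8 genes, the other pathway genes, the marker lists, flanking or overlapping genes, and 2 genes of most similar profile each. A few listed genes are not reported here and were left out of the lists.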

Additional observations from a re-analysis of the deposited data

How the results depend on the processing

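For the 8 genes, 5 higher and 2 lower held under all alternatives run but one: asking for at least 1 CPM in 3 libraries left 6 of the 8 tested, without Htr7 and Maob, with 4 higher and 1 lower. Htr2b ranged from 4.09 to 4.57 on the log2 scale, Htr7 from -2.70 to -2.15, Slc6a4 from 1.53 to 1.66, Slc18a1 from 2.06 to 2.47, Slc18a2 from -0.88 to -0.71, Maoa from 0.63 to 0.77 and Maob from 2.05 to 2.60. The largest adjusted p among these was 0.042, for Slc18a2 with a library left out. Htr2a ran from -0.026 to 0.31 as libraries were left out, and was negative without BW723C86 replicate 3. Against a fold change of 1.2, 3208 genes and 4 other pathway genes higher passed, in place of 6534 and 8. The other pathway genes called lower were 5 in place of 4 under RLE, upper quartile and library-size scaling, both other filters, DESeq2, counts divided by 4, and without BW723C86 replicate 1 or 2, each time by S100a10 (adjusted p = 0.0024 to 0.048). Without BW723C86 replicate 2, Spr and Afmid also passed, which made 10 higher. Without its most abundant marker, Fcrls, the microglia sum was lower with BW723C86 by 27.4 CPM (difference -27.4), in place of higher by 75.4. The replicate number as a block changed no call among the 8 genes (Htr2b 4.31, Htr7 -2.39, Slc18a2 -0.77 with adjusted p = 0.018) and gave 6179 genes past the threshold. Same-numbered libraries did not deviate together more than other pairs did (correlations of 0.031, -0.0247 and -0.00481 across genes, against -0.0312 to 0.0381). Deviations across all genes hold much counting noise, so this check cannot decide whether the numbers pair libraries. Low counts limit Htr2b and Maob in DMSO and Htr7 with BW723C86. The sums with a library left out were added after the data were seen.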
